A study of Rattus norvegicus with 6 samples.

Results

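Chemokines and chemokine receptors were followed across arrays of RNA from brain capillaries, the smallest vessels of the brain. The genes were Ccl2, Ccl3, Ccl4, Ccl5, Cxcl1, Cxcl2, Cx3cl1, the receptor Cx3cr1 and Pf4, and every probe set that the annotation of the RG_U34A rat array gives to 1 of them was taken, whatever its value. This gave 11 probe sets for 8 of the 9 genes, out of 8740 probe sets and 4736 named genes on the array. Cxcl1 had none under that annotation. All 11 probe sets lay above the filter on low values, so that all were among the 5244 tested.

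All animals were stroke-prone spontaneously hypertensive rats (SHRSP), a strain with inherited high blood pressure, 6 weeks old by the labels. The control group had 2 arrays. The ACEI group (2 arrays) received lisinopril, an inhibitor of the enzyme that forms angiotensin II, at 6 mg/kg per day, and the ARB group (2 arrays) received olmesartan, a blocker of the angiotensin type 1 receptor, at 4 mg/kg per day by mouth. The labels also name 1% NaCl, without saying whether the treated groups received it too. The number of animals per array is not stated, so p-values measure only the spread between arrays, which may be technical. The labels give angiotensin II and its influence on the genes of cerebral microvessels as the subject of the study.

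Chemokines are small secreted proteins that guide leukocytes along a gradient, and receptors coupled to G proteins read them. Those of the CC family, Ccl2 to Ccl5 here, act chiefly on monocytes, macrophages and lymphocytes, and the CXC chemokines Cxcl1 and Cxcl2 act on neutrophils through Cxcr2. Cx3cl1, also called fractalkine, is made as a membrane protein by neurons and endothelium, and its receptor Cx3cr1 is carried in the brain mainly by microglia. Pf4 is a CXC chemokine stored in the granules of platelets.

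The deposited intensities had been scaled to nearly the same trimmed mean on each array (997.7 to 1002.2), but the median intensity was 485.7 and 493.8 on the ARB arrays and 244.9 to 353.4 on the other arrays. The 15 probe sets for bacterial genes, which should stay dark unless such RNA is added, reached medians of 91.4 and 80.9 with ARB but only 18.4 to 28.8 on the others. For Gapdh the probe set at the 3′ end was 7.31 times as bright as the one at the 5′ end on control 2 and 0.93 to 1.59 times elsewhere, and a high ratio accompanies degraded or incompletely copied RNA. The first run day and chip lot held control 1 and ACEI 1, and a later day and lot held the remaining 4 arrays. In every group the file headers give the array numbered 1 another fluidics protocol than the array numbered 2. Of 26 brain endothelial markers 18 had a probe set, none of them at 0 on any array, and their summed intensity was 113789 and 198068 on the controls, 109339 and 129492 with ACEI and 93728 and 107283 with ARB. Slc2a1 alone had 33690.7 and 66763.4 on the controls, where Pecam1 had 5538.3 and 193.8, Flt1 3477.1 and 335.1 and Icam2 1109.0 and 1018.9. The sum thus leans on its brightest gene and does not rank the arrays by their endothelium. The defining markers Cdh5 and Cldn5 have no probe set on this array. Markers of other cells were measured too, among them 14 of 23 for microglia and macrophages and 20 of 25 for neurons.

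Most of the chemokines had lower mean intensities in the treated groups than in the control group, and for most of them the lowest mean was that of the ARB group. Differences are given as log2(intensity + 90) of treated minus control with the standard error (SE) of the limma model, and folds are on that same scale, which understates the change of dim probe sets. No difference passed a Benjamini-Hochberg adjusted p of 0.05 in limma: the share of all probe sets called was 0% in each of the 4 comparisons and 0 of the 11 chemokine probe sets were called. For RAS blockade, the mean of both drugs, against control, 8 of 11 chemokine differences were below 0, against 40.4% of all tested probe sets. At an unadjusted p under 0.05, 4 of the 11 were lower (Cxcl2, Ccl3, Ccl4 and the Ccl2 probe set X17053mRNA_s_at), against 2.02% of all tested probe sets. Of these, Cxcl2 alone stayed at that level under every alternative run. Ccl3 was not at it with quantile or cyclic loess normalization, an offset of 1, no moderation or the later run day alone, nor without any 1 array other than control 2 or ACEI 2, and under either normalization or that offset 3 of the 11 were left. Across the array 266 of 5244 probe sets were at that level in either direction. On all 4 treated arrays Cxcl2, Ccl4 and that Ccl2 probe set lay below both controls, 3 of 11 against 3.72% of all tested, and 0 of 11 lay above both, against 4.63%.

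**Figure D1:**
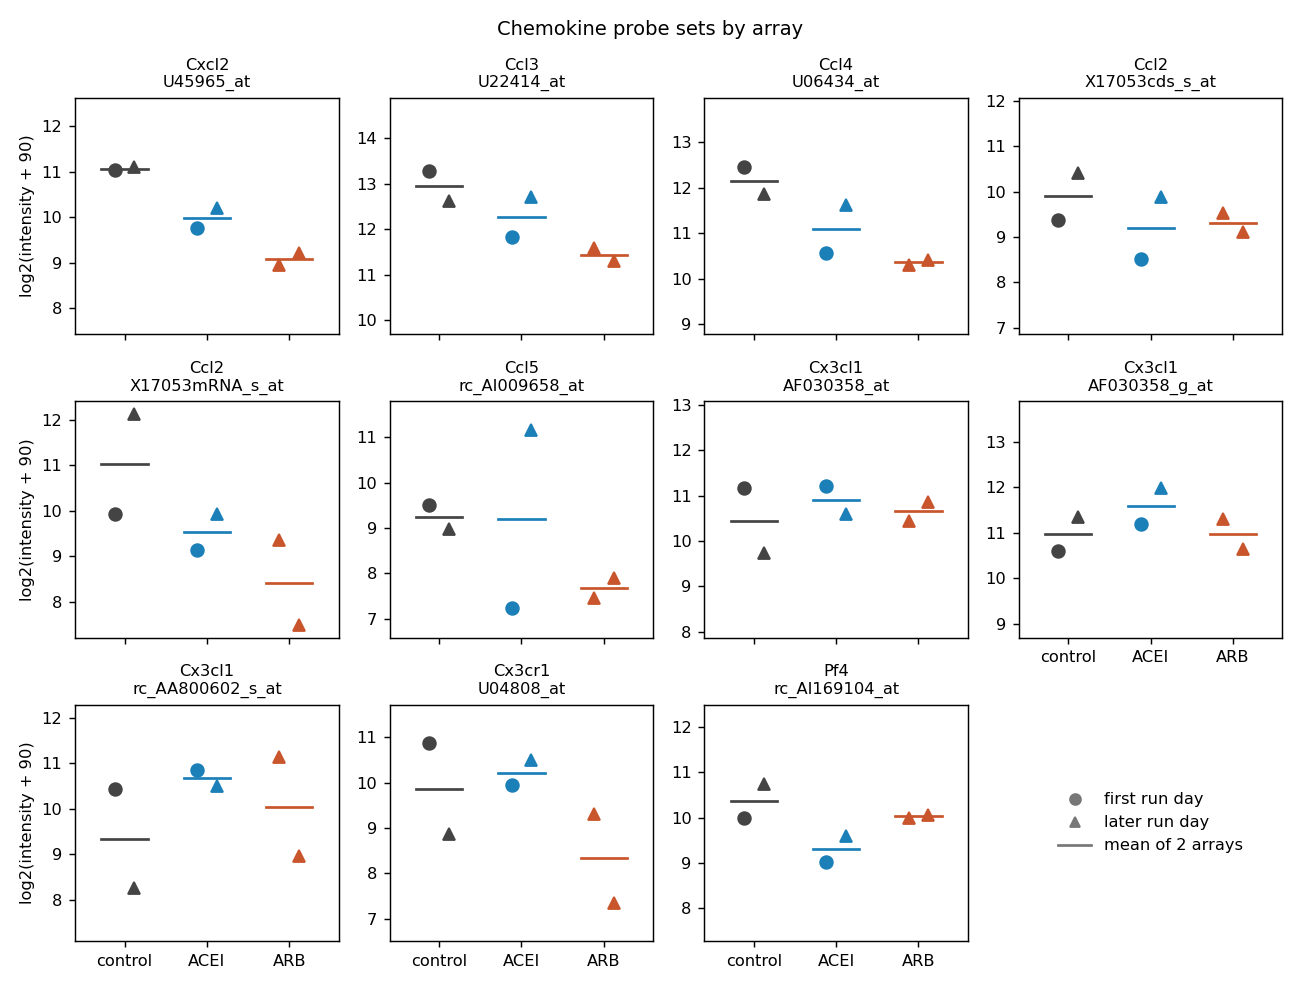
Each panel plots 1 chemokine probe set as log2(intensity + 90) for the 2 control, 2 ACEI and 2 ARB arrays, with circles for the first and triangles for the later run day and a line at the mean of 2 arrays; each vertical axis has its own range. Cxcl2 has tight pairs in descending order from control to ARB, whereas Ccl5 has ACEI arrays at 7.23 and 11.15.

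Against control, the ACEI group had 7 of 11 chemokine differences below 0, against 53.1% of all tested probe sets. Only Cxcl2 was lower at an unadjusted p under 0.05 (1 of 11, against 1.39% of all tested and 136 probe sets in either direction). On both ACEI arrays 4 probe sets lay below both controls, those of Cxcl2, Ccl4 and Pf4 and X17053mRNA_s_at of Ccl2, against 11.9% of all tested. In the other direction 1 of 11, a probe set of Cx3cl1, lay above both controls, against 11.6%.

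The ARB group had 9 of 11 differences below 0, against 41.9% of all tested probe sets. The same 4 probe sets as for RAS blockade were lower at an unadjusted p under 0.05, against 4.69% of all tested and 905 probe sets in either direction. On both ARB arrays 5 of the 11 lay below both controls, those 4 and Ccl5, against 16.8% of all tested. The median chemokine difference was -0.69 for RAS blockade, -0.68 for ACEI and -1.51 for ARB, beside medians over all tested probe sets of 0.13, -0.04 and 0.18. Quantile normalization moved the median of all tested probe sets to -0.03 for RAS blockade and -0.07 for ARB, and cyclic loess to 0.02 and -0.00. Under either, only 1 chemokine difference from control changed its sign, that of the Cx3cl1 probe set AF030358_g_at for ARB. The comparisons with control share the same 2 control arrays, so the likeness of their results is no separate evidence.

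**Figure D2:**
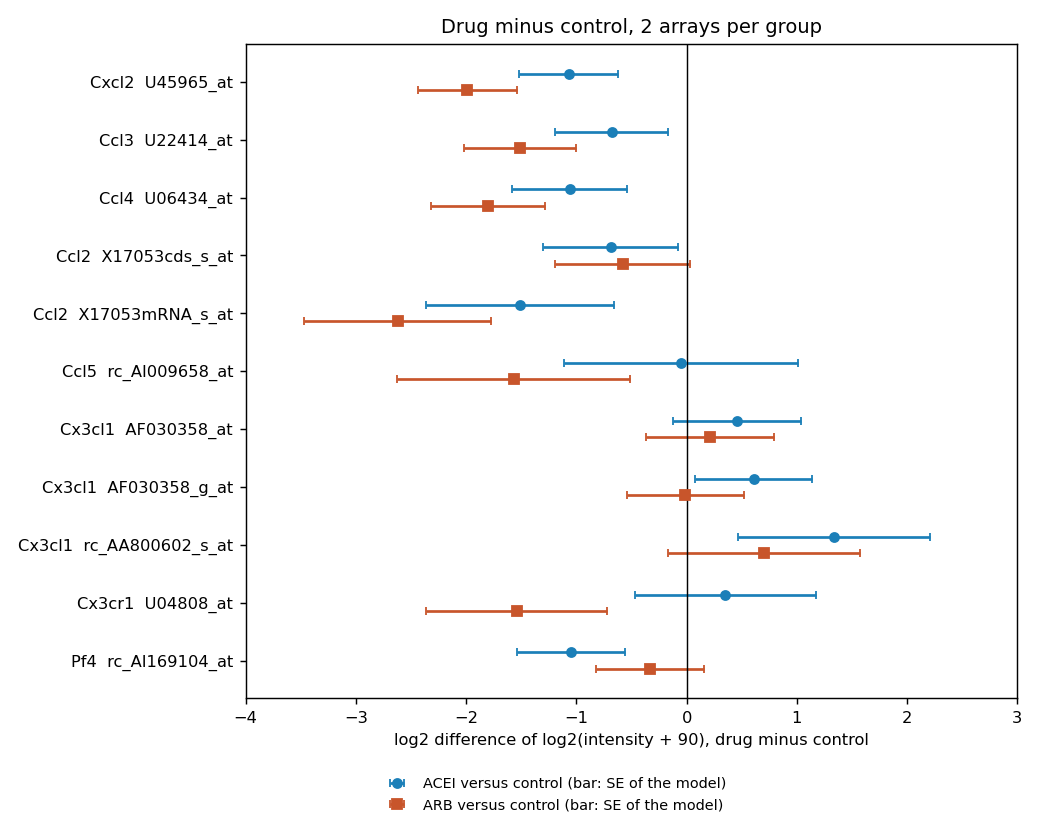
Points are the log2 differences from control for ACEI (circles) and ARB (squares), with the SE of the limma model as bars (n = 2 arrays per group), for the 11 chemokine probe sets. The ARB value is the lower of the 2 for 9 of the 11 probe sets, the exceptions being Ccl2 X17053cds_s_at and Pf4, and Cx3cl1 lies above 0 apart from an ARB value of -0.01.

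Cxcl2 is a neutrophil chemokine, made within hours by macrophages, endothelium and other cells after an inflammatory signal. Its intensity was 2003.5 and 2104.9 on the controls, 784.8 and 1095.8 with ACEI and 405.3 and 501.6 with ARB. The 3 groups did not overlap and followed the order control, ACEI, ARB, with group means of 11.07 ± 0.05, 9.99 ± 0.31 and 9.08 ± 0.18 (log2, SD, n = 2 each). The difference from control was -1.07 ± 0.45 for ACEI (2.1-fold lower, limma adjusted p = 0.992) and -1.99 ± 0.45 for ARB (3.96-fold lower, adjusted p = 0.199). For RAS blockade it was -1.53 ± 0.39 (2.89-fold lower, adjusted p = 0.863). Of the 11 probe sets it had the narrowest range for RAS blockade over the alternatives run, from -1.72 to -1.24. Within the first run day the ACEI difference was -1.26, and within the later day the differences were -0.89 for ACEI and -2.02 for ARB.

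The start regions of Cxcl2 and Cx3cl1 are shown, picked after their values were seen: Cxcl2 had lower values on every treated array and Cx3cl1 did not. They are from RefSeq (build GRCr8) and each covers 300 bases around the annotated start, most of them before it, 5′ to 3′ on the gene's strand; capitals mark matches to the kappa-B consensus in Cxcl2 and to TATAAA in Cx3cl1. The reference held such a window for 4 of the 9 genes, Cxcl1, Cxcl2, Cx3cl1 and Cx3cr1, and none for Ccl2, Ccl3 or Ccl4.
Cxcl2, chr14:17467206-17467505, minus strand: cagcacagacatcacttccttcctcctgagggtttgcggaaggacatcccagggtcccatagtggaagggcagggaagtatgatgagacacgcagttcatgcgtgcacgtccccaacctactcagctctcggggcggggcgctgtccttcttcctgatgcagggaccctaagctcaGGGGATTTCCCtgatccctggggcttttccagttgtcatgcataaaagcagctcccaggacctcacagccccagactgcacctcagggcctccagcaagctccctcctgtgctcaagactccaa
Cx3cl1, chr19:10242771-10243070, minus strand: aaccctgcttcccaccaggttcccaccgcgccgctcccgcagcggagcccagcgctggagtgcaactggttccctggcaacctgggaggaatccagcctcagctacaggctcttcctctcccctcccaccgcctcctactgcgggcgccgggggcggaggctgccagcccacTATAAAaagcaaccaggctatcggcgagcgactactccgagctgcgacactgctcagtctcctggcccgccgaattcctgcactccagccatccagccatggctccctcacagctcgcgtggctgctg
In Cxcl2, overlapping matches to the kappa-B consensus took bases 177 to 186 and, on both strands, 178 to 187 of the window, counted from its 5′ end. Of 33469 promoter windows of the same length 7.51% held a match to that consensus on either strand. Cxcl1, which lies next to Cxcl2 in the genome, held matches too, and Cx3cl1 and Cx3cr1 held none. TATAAA stood at bases 173 to 178 of the Cx3cl1 window and in 14.2% of all windows. The AP-1 motif TGANTCA, in 7.33% of all windows, had no match in the 4 chemokine windows. A match is a stretch of letters and does not show that a factor such as NF-kappa-B binds there. The part of NF-kappa-B in the chemokine values was not tested.

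Neutrophil markers, given beside Cxcl2 because neutrophils follow this chemokine, were measured by 10 of 18 genes. Their summed intensity was 12085 and 10970 on the controls, 4193 and 6547 with ACEI and 4551 and 4062 with ARB, with none at 0. The groups of treated and control arrays did not overlap, and S100a8, a subunit of the neutrophil protein calprotectin, had 2685.8 and 2678.9 on the controls against 962.2, 1585.7, 395.9 and 79.6 on the treated arrays. Of the 7 markers tested, 6 were below 0 for RAS blockade, against 40.4% of all tested probe sets, with a median of -1.17. For ARB 5 were below and 2 above 0, against 41.9% below 0 of all tested. In RNA of a capillary preparation with markers of several cell types, fewer cells of a type and less RNA per cell cannot be told apart. The part of neutrophils in the Cxcl2 result was not tested.

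Ccl3 and Ccl4, also called MIP-1 alpha and beta, are chemokines of activated macrophages and microglia, and they lie side by side in the rat genome. Ccl3 had 9847.1 and 6230.6 on the controls, 3541.2 and 6605.4 with ACEI and 2963.8 and 2435.2 with ARB. Ccl4 had 5514.8 and 3641.2 on the controls, 1435.3 and 3085.6 with ACEI and 1179.3 and 1272.0 with ARB. For both genes ACEI 2 stood well above ACEI 1, and for Ccl3 it reached into the range of the controls, whereas both ARB arrays lay below all others.

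The Ccl3 group means were 12.95 ± 0.46 for control, 12.27 ± 0.62 for ACEI and 11.44 ± 0.19 for ARB (log2, SD, n = 2). The ARB difference from control was -1.51 ± 0.51 (2.85-fold lower, limma adjusted p = 0.235) and that of ACEI -0.68 ± 0.51 (adjusted p = 0.992), with a 95% interval from -1.86 to 0.49. For Ccl4 the means were 12.16 ± 0.42, 11.10 ± 0.75 and 10.36 ± 0.07. In that gene ARB differed from control by -1.80 ± 0.52 (3.48-fold lower, adjusted p = 0.207) and ACEI by -1.06 ± 0.52 (2.08-fold lower, adjusted p = 0.992). For RAS blockade the differences were -1.10 ± 0.44 for Ccl3 and -1.43 ± 0.45 for Ccl4 (adjusted p = 0.863 for each). In both genes the means followed the order control, ACEI, ARB, but the intervals of the neighbours' differences held 0.

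The ACEI result of this pair differed between the run days, which differed in chip lot too. Day, lot, fluidics protocol and the spread between single arrays cannot be told apart here. Within the first day the ACEI difference was -1.45 for Ccl3 and -1.88 for Ccl4, and within the later day 0.08 and -0.23, from 1 array each. The 2 ARB arrays, both of the later day, lay below control 2 by a mean difference of -1.19 for Ccl3 and -1.50 for Ccl4. The ACEI difference was therefore not the same in size, nor for Ccl3 in sign, on both days, while the ARB group has no array of the first day.

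Microglia and macrophage markers, given beside this pair because these cells make both chemokines, were lowest on the ARB arrays. Their summed intensity (14 of 23 genes, none at 0) was 70966 and 82342 on the controls, 53910 and 84553 with ACEI and 45249 and 46507 with ARB. ACEI 2 had the highest of the 6 sums. C1qb, a complement subunit made by microglia, had 12180.6 and 13244.6 on the controls, 5138.1 and 15963.2 with ACEI and 2638.6 and 3065.2 with ARB at probe set X71127_at, while at X71127_g_at control 2 stood at 1624.9 against 8109.7 for control 1. Of 12 markers tested, 10 were below 0 for ARB, against 41.9% of all tested probe sets, and 5 of them were lower at an unadjusted p under 0.05, against 4.69%, with a median of -0.54. The defining markers Cd68 and Tyrobp have no probe set here, and the part of these cells in the Ccl3 and Ccl4 results was not tested.

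**Figure D3:**
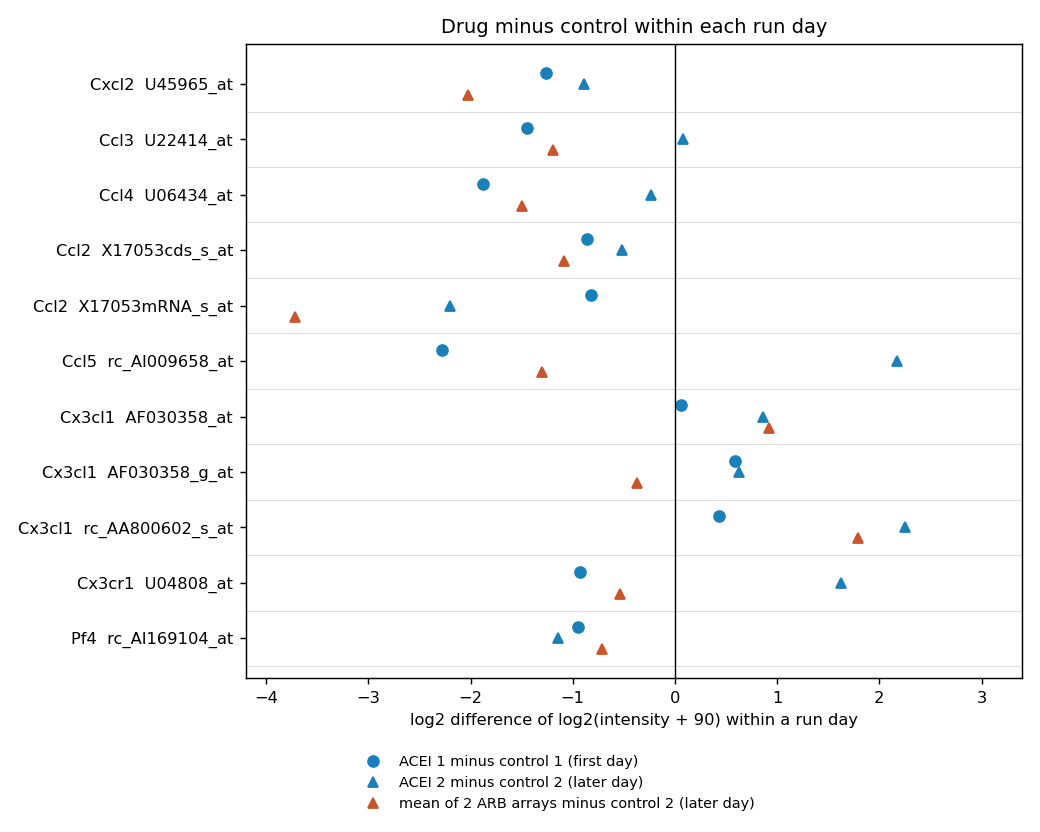
Points are single differences in log2(intensity + 90) from the control array of the same run day, for ACEI on the first day (circles), ACEI on the later day (blue triangles) and the mean of both ARB arrays on the later day (red triangles). All 3 points lie below 0 for Cxcl2, Ccl4, both Ccl2 probe sets and Pf4, and the 2 ACEI points of Ccl5 lie at -2.28 and 2.17.

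Ccl2, also called MCP-1, draws monocytes from blood and is made by endothelium, smooth muscle and glia. Its probe set X17053mRNA_s_at had 894.4 and 4422.0 on the controls, 468.4 and 889.7 with ACEI and 569.0 and 88.8 with ARB. Control 2 stood far above the rest, and control 1 and ACEI 2 were nearly equal, so that the groups were kept apart by a narrow gap. The differences were -1.51 ± 0.85 for ACEI (limma adjusted p = 0.992) and -2.62 ± 0.85 for ARB (6.14-fold lower, adjusted p = 0.23), and the control mean was 11.04 ± 1.55 (log2, SD, n = 2). For RAS blockade the value of -2.06 ± 0.73 became -0.97 without control 2 and -3.16 without control 1. It was not at an unadjusted p under 0.05 without control 2, ACEI 1, ACEI 2 or ARB 2, nor without moderation of the variances.

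The second Ccl2 probe set, X17053cds_s_at, had 574.9 and 1264.6 on the controls, 277.0 and 854.6 with ACEI and 644.8 and 459.3 with ARB. Here the groups overlapped, since ACEI 2 and ARB 1 lay above control 1. The differences were -0.69 ± 0.61 for ACEI, -0.58 ± 0.61 for ARB (limma adjusted p = 0.992 and 0.645) and -0.63 ± 0.53 for RAS blockade, which was -1.15 without control 1 and -0.12 without control 2. Both probe sets of Ccl2 thus had the highest value on control 2, the array with a Gapdh ratio of 7.31, and the part of RNA quality in this was not tested. Markers of pericytes and smooth muscle, which make Ccl2 too, had summed intensities (13 of 17 genes, none at 0) of 46953 and 66073 on the controls, 30175 and 30198 with ACEI and 36003 and 37471 with ARB. In this sum all treated arrays lay below both controls, and control 2 was again the highest. Of it Acta2 had 19510.7 and 23119.6 on the controls at rc_AA900769_s_at (-1.31 for RAS blockade). Its other probe sets had 2880.8 and 905.9 there at X06801cds_f_at (0.05) and 5584.1 and 487.7 at X06801cds_i_at (0.03). Of 12 of these markers tested 10 were below 0 for RAS blockade, against 40.4% of all tested probe sets, with a median of -0.48. The pericyte marker Rgs5 has no probe set here, and the part of these cells in the Ccl2 values was not tested. The Ccl2 probe sets also differed from each other in course over the 6 arrays, with a root mean square difference of 1.01 between their centred log2 values.

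Ccl5, also called RANTES, is made by T cells, natural killer cells and activated glia and attracts T cells and monocytes. Its intensity was 640.4 and 413.6 on the controls, 60.4 and 2183.2 with ACEI and 84.8 and 148.8 with ARB. The ACEI pair spanned the lowest and the highest of all 6 values, and both ARB arrays lay below both controls. The ACEI difference was -0.05 ± 1.06 (limma adjusted p = 1), the mean of within-day values of -2.28 and 2.17, and the ARB difference was -1.57 ± 1.06 (2.97-fold lower, adjusted p = 0.457). For RAS blockade it was -0.81 ± 0.92, and 0.17 without ACEI 1.

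Taken as a sum, T and NK cell markers did not share the course of Ccl5. Their summed intensity (13 of 20 genes, none at 0) was 2969 and 2537 on the controls, 2736 and 2863 with ACEI and 6018 and 6000 with ARB. The ARB arrays, lowest but for ACEI 1 in Ccl5, thus had the highest sums of these markers. Granzyme B, Gzmb, of cytotoxic cells had 1160.7 and 1120.8 there and 158.5 to 306.0 on the other arrays. The bacterial probe sets were brighter on the same 2 arrays (91.4 and 80.9), and the part of this background in the marker sums was not tested. Of the 6 markers tested, 5 were above and 1 below 0 for ARB, with a median of 1.24. Among all tested probe sets 41.9% were below 0 for ARB, with a median of 0.18. After quantile and cyclic loess normalization 4 of the 6 markers were above and 2 below 0, with medians of 0.71 and 0.65. The T cell marker Cd5 had 203.1 and 232.9 on the controls, 356.7 and 214.1 with ACEI and 280.3 and 192.1 with ARB. Its ARB difference was 0.07. Cd3d and Cd8a were too dim for the filter, and Cd3e has no probe set here.

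Cx3cl1, whose membrane-bound form holds leukocytes to endothelium and whose shed form acts on microglia, was the chemokine gene with a RAS blockade difference above 0 at all 3 of its probe sets. Its probe set AF030358_g_at had 1478.2 and 2506.9 on the controls, 2265.2 and 3938.4 with ACEI and 2426.8 and 1514.4 with ARB. AF030358_at had 2192.7 and 760.4, then 2289.7 and 1449.7, and 1305.8 and 1759.8 in the same order of groups. The groups overlapped in both. The RAS blockade differences were 0.30 ± 0.46 and 0.33 ± 0.51 (limma adjusted p = 0.919 and 0.92), with 95% intervals from -0.74 to 1.35 and from -0.82 to 1.49 that leave both directions possible.

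The third Cx3cl1 probe set, rc_AA800602_s_at, had 1292.3 and 215.2 on the controls, 1767.6 and 1363.9 with ACEI and 2157.1 and 403.1 with ARB. Both ACEI arrays lay above both controls, with a difference of 1.34 ± 0.87 (2.53-fold higher, limma adjusted p = 0.992). Without control 2 the RAS blockade difference of 1.02 ± 0.75 was -0.07, so its sign rests on that array. Control 2 had a Gapdh ratio of 7.31, and the part of RNA quality in its low value was not tested. The 3 probe sets of the gene did not follow one course: their pairwise root mean square differences over the 6 arrays were 0.82, 0.86 and 1.06.

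Cx3cl1 is made by both neurons and endothelium, so the markers of both are given. The summed intensity of neuronal markers (20 of 25 genes, none at 0) was 7898 and 13197 on the controls, 16269 and 17327 with ACEI and 17960 and 23245 with ARB, all treated arrays above both controls. All 13 neuronal markers tested were above 0 for RAS blockade, whereas 40.4% of all tested probe sets were below 0. The median of these markers was 0.74, beside 0.13 for all tested, and 12 of 13 were above 0 after quantile or cyclic loess normalization. Of 17 endothelial markers tested 6 were below and 11 above 0, with a median of 0.37, and Pecam1, an adhesion protein of endothelium, had the widely different values of 5538.3 and 193.8 on the controls. Rbfox3 and Eno2 have no probe set here, and the part of either cell type in the Cx3cl1 values was not tested.

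Cx3cr1, the receptor of Cx3cl1, had 1778.6 and 379.5 on the controls, 890.2 and 1355.6 with ACEI and 547.2 and 73.8 with ARB. Both ACEI arrays lay between the controls, and ARB 1 did so too. The control pair differed by more than the group means, which were 9.87 ± 1.41, 10.22 ± 0.40 and 8.34 ± 1.39 for control, ACEI and ARB (log2, SD, n = 2). The difference from control was 0.35 ± 0.82 for ACEI (limma adjusted p = 0.992) and -1.54 ± 0.82 for ARB (2.9-fold lower, adjusted p = 0.357). For RAS blockade the difference of -0.59 ± 0.71 was 0.40 without control 1 and -1.59 without control 2. Within the run days ACEI was at -0.93 and 1.62 and ARB at -0.54. Microglia and macrophage markers, whose sums stand beside Ccl3 and Ccl4 above, were lowest on the ARB arrays. For Cx3cr1 the ARB mean was the lowest too, but ARB 1 (547.2) lay above control 2 (379.5). The part of these cells in the Cx3cr1 values was not tested. The 2 lowest arrays were ARB 2 and control 2 for Cx3cr1 and control 2 and ARB 1 for AF030358_at of Cx3cl1. The part of the RNA quality of control 2 in this was not tested.

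Pf4 is released by platelets when they are activated, and the Pf4 RNA inside platelets is carried over from megakaryocytes. Its intensity was 925.9 and 1623.3 on the controls, 434.5 and 685.7 with ACEI and 934.4 and 979.7 with ARB. Both ACEI arrays were below all others, and both ARB arrays lay between the controls. The difference from control was -1.05 ± 0.49 for ACEI (2.07-fold lower, limma adjusted p = 0.992) and -0.33 ± 0.49 for ARB (adjusted p = 0.747). Pf4 was the only gene of the 8 with its lowest mean in the ACEI group at every probe set it has. Within the run days ACEI was at -0.95 and -1.14. Without control 2 the RAS blockade difference of -0.69 ± 0.42 was -0.31, and without control 1 it was -1.07.

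Platelet markers are given beside Pf4 because platelets store it. Their summed intensity (9 of 17 genes, none at 0) was 3318 and 3094 on the controls, 2485 and 2063 with ACEI and 3621 and 4692 with ARB, so the ACEI arrays were lowest here too and the ARB arrays highest. Of the 9 genes 5 passed the filter, with 2 below and 3 above 0 for RAS blockade, against 40.4% of all tested below 0. Their median was 0.04, which was -0.25 after quantile and -0.22 after cyclic loess normalization. For ARB 1 was below and 4 above 0, with a median of 0.42, against 41.9% of all tested below 0. After quantile and cyclic loess normalization 3 were below and 2 above 0 for ARB, with medians of -0.16 and -0.10. The bacterial probe sets were brightest on the ARB arrays (91.4 and 80.9), and the part of this background in the platelet sums was not tested. Itga2b, the platelet integrin, had 579.8 and 704.3 on the controls, 496.0 and 548.2 with ACEI and 911.6 and 576.9 with ARB. Ppbp, Gp9 and Gp1bb have no probe set here, and the part of platelets or of other cells in the Pf4 values was not tested.

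**Figure D4:**
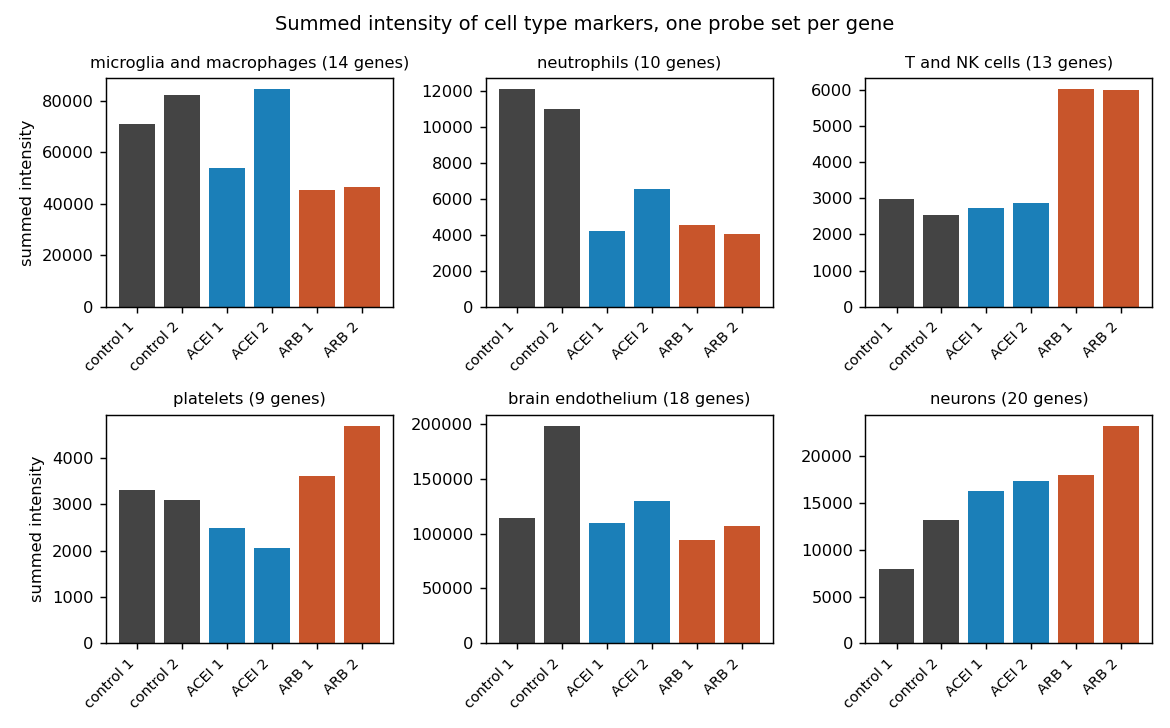
Bars are the summed intensity of the measured markers of 6 cell types on each array, with 1 probe set per gene; the vertical axes start at 0 and differ between panels. Neutrophil sums are lower and neuronal sums higher on all 4 treated arrays than on both controls, and T and NK cell sums are highest on the ARB arrays (6018 and 6000).

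Between the drugs, 9 of 11 chemokine values were lower with ARB than with ACEI, against 43.5% of all tested probe sets, with a median of -0.74 against 0.15. Quantile normalization moved the median of all tested to -0.05 and cyclic loess to -0.01, and the sign of 1 chemokine difference, that of the Ccl2 probe set X17053cds_s_at, turned with both. At an unadjusted p under 0.05 only Cx3cr1 was lower (1 of 11, against 6.71% of all tested and 1171 probe sets in either direction). Cx3cr1 was not at that level with an offset of 1 or of the median, no filter, the 60% filter, no moderation, the run day as a block (-1.52) or the later run day alone, nor without ACEI 1, ACEI 2 or ARB 2. Cxcl2 was at it with quantile or cyclic loess normalization, no filter, no moderation or the later run day alone. On both ARB arrays Cxcl2, Ccl3, Ccl4 and Cx3cr1 lay below both ACEI arrays, 4 of 11 against 25.3% of all tested. Pf4 alone lay above both, 1 of 11 against 37.1%. These shares show that non-overlap of 2 pairs was common in this comparison.

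The differences between ARB and ACEI were -0.91 ± 0.45 for Cxcl2 (1.88-fold lower, 95% interval -1.94 to 0.12, limma adjusted p = 0.27) and -1.88 ± 0.82 for Cx3cr1 (3.68-fold lower, interval -3.75 to -0.02, adjusted p = 0.221). Ccl3 was at -0.83 ± 0.51 (interval -2.00 to 0.34) and Ccl4 at -0.74 ± 0.52 (interval -1.94 to 0.45). For Pf4 the difference was 0.71 ± 0.49, with an interval from -0.40 to 1.83. Leaving out each array in turn gave -2.86 to -0.90 for Cx3cr1, -1.27 to -0.39 for Ccl3 and -1.27 to -0.21 for Ccl4. The intervals are not adjusted for the number of probe sets. The drugs were given at different doses, 6 and 4 mg/kg per day, and 1 of the 2 ACEI arrays was of the first run day.

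Other members of the chemokine system were sparse on this array. Beside the counts of this list and the next ones, 40.4% of all tested probe sets were below 0 for RAS blockade. Of 27 other chemokines 9 had a probe set and 5 were tested, with 3 below and 2 above 0 for RAS blockade and a median of -0.07 that was -0.39 after quantile and -0.33 after cyclic loess normalization. Cxcl10, an interferon-induced attractant of T cells, was the only one at an unadjusted p under 0.05 in limma. That is 1 of 5, against 2.02% of all tested probe sets lower at that level. Cxcl10 had 702.6 and 683.6 on the controls, 208.3 and 217.5 with ACEI and 414.4 and 134.6 with ARB. All treated arrays lay below both controls, with a difference of -1.29 ± 0.45. Cxcl6, a neutrophil attractant, had 1209.6 and 1343.3 on the ARB arrays and 92.7 to 415.7 on the others, which gave 1.68 ± 0.56 for ARB and 0.60 ± 0.49 for RAS blockade. Cxcl14, a chemokine of epithelia and of some neurons, was at -0.21 ± 0.57, with its other probe set at 0.78. Cxcl12, the ligand of Cxcr4, had no probe set.

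Of 22 other chemokine receptors 9 had a probe set and 4 were tested, 1 below and 3 above 0 for RAS blockade and 0 at an unadjusted p under 0.05 in limma. Cxcr1, a receptor of neutrophil chemokines, had 2255.4 and 1540.7 on the ARB arrays and 76.3 to 738.0 on the others. As for Cxcl6, the 2 ARB arrays stood apart, and these are the arrays on which the bacterial probe sets were brightest (91.4 and 80.9); the part of this background was not tested. Ackr3, which takes up Cxcl12 without G protein signalling, had 194.7 and 801.2 on the ARB arrays and 1298.4 to 2059.9 on the others (ARB difference -1.53 ± 0.60). Cxcr4 was at 0.33 ± 0.50, with its other probe sets at 0.61 and -0.39, and Ackr1, the chemokine scavenger of venules, had no probe set.

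Among cytokines that induce chemokines and their receptors, 22 of 25 had a probe set and 12 were tested, 6 below and 6 above 0 for RAS blockade (8 and 4 after quantile or cyclic loess normalization). Il1b and Il1a, the 2 forms of interleukin-1, were the 2 at an unadjusted p under 0.05. Both were lower, 2 of 12 against 2.02% of all tested probe sets lower at that level in limma. At probe set D00403_at Il1a had 2650.1 and 2968.3 on the controls and 618.9 to 1598.7 under treatment, which gave -1.34 ± 0.40. At M98820_at Il1b had 3426.9 and 9034.0 on the controls and 870.1 to 1798.0 on the treated arrays. Treated and control arrays did not overlap at these probe sets, but they did at the Il1a probe set D00403_g_at (-1.56) and at E01884cds_s_at of Il1b (-0.93). The lipopolysaccharide co-receptor Cd14 was at -0.79 ± 0.44, with its other probe set at -0.11.

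Of 26 NF-kappa-B and AP-1 factors 14 had a probe set and 12 were tested, 9 below and 3 above 0 for RAS blockade, with a median of -0.30. Nfkbia, the inhibitor that NF-kappa-B induces, was the only one at an unadjusted p under 0.05 (1 of 12, against 2.02% of all tested lower). Its probe set X63594cds_g_at had 10611.3 and 6074.9 on the controls, 3475.8 and 7094.3 with ACEI and 1671.7 and 1164.2 with ARB. As for Ccl3 and Ccl4, ACEI 2 was the highest treated array and the ARB arrays the lowest. Its difference was -0.68 ± 0.55 for ACEI and -2.45 ± 0.55 for ARB, while its other probe set was at -0.21 for RAS blockade. Irf1, an interferon response factor, was at -1.35 ± 0.63 with another probe set at 0.23, and Cebpd, a factor of the acute phase, at -0.74 ± 0.46 with others at 0.36 and -0.49.

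The receptors' signalling chain had 30 of 42 genes with a probe set and 23 tested, 13 below and 10 above 0 (16 and 7 after either normalization), and 0 at an unadjusted p under 0.05 for RAS blockade in limma. The largest differences were those of the G protein subunit Gnb2 (1.30 ± 0.77) and of the small GTPases Cdc42 (-0.81 ± 0.49) and Rhoa (0.79 ± 1.14). The other probe sets of Cdc42 were at -0.82, -0.05 and 0.72. Rhoa had 25.9 on control 2 against 3916.5 on control 1, so that the controls alone spanned all the other arrays but ACEI 2. Proteins that bind, cut or store chemokines had 16 of 19 genes with a probe set and 13 tested, 4 below and 9 above 0, with a median of 0.55 that was 0.32 after quantile and 0.35 after cyclic loess normalization. Gpc1, a heparan sulphate proteoglycan, was the 1 gene of these above 0 at an unadjusted p under 0.05 (1.07 ± 0.38). Of all tested probe sets, 266 of 5244 were at that level in either direction. Gpc1 had 570.2 and 734.3 on the controls, 918.0 and 1020.2 with ACEI and 2029.1 and 2344.7 with ARB. Both groups of treated arrays lay above the controls.

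The proteases Adam10 and Adam17, which shed Cx3cl1 from the membrane, had a low value on control 2. Adam10 had 1160.2 and 160.4 on the controls and 666.0 to 1190.5 under treatment, with a difference of 0.85 ± 0.62. Adam17 had 793.2 and 39.2 on the controls and 193.0 to 871.8 under treatment, with a difference of 1.02 ± 0.77. For both genes control 2 was the lowest of the 6 arrays, and there Cx3cl1 too had its lowest value at 2 of its 3 probe sets. Control 2 is the array with a Gapdh ratio of 7.31, and Rhoa and Pecam1 were far lower there than on control 1 as well. The part of RNA quality in these low values was not tested. The peptidase Anpep, which can trim chemokines, was at 0.91 ± 0.50 at AF039891_s_at and at -1.08 at M25073_at.

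Of 20 leukocyte adhesion genes 12 had a probe set and 9 were tested, 4 below and 5 above 0 for RAS blockade, with a median of 0.04 that was -0.25 after quantile and -0.22 after cyclic loess normalization. Icam1 and Icam2, ligands of leukocyte integrins, were the 2 at an unadjusted p under 0.05. Both were lower, 2 of 9 against 2.02% of all tested probe sets lower at that level in limma. At D00913_g_at Icam1 had 5541.7 and 5525.1 on the controls, 1706.2 and 2742.5 with ACEI and 1924.8 and 2093.2 with ARB, a difference of -1.37 ± 0.40. There its treated arrays lay below both controls with both drugs, whereas at D00913_at (-0.76) the groups overlapped. Icam2 had 1109.0 and 1018.9, then 894.4 and 1253.2, and 208.3 and 256.8, so that only the ARB arrays were apart. The integrin subunit Itgb1 was at -0.72 ± 0.42. None of the genes in these lists passed the adjusted threshold.

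Likeness of course over the 6 arrays was measured as the root mean square difference between centred log2 values, and smaller values mean more alike. For Cxcl2 the nearest of 4314 probe sets with a gene name were Lpar1 (0.25), Nr4a1 (0.25) and Gng5 (0.26). For Pf4 they were Serinc3 (0.16), Cebpd (0.16) and Ifrd1 (0.17), each with its lowest value on ACEI 1. For the Cx3cl1 probe set AF030358_g_at they were Crcp (0.09), Cntnap1 (0.17) and Slc2a4 (0.18), and for X17053mRNA_s_at of Ccl2 Pla1a (0.35), Pcna (0.48) and Epb41 (0.55), which share its high value on control 2. For the other probe sets of these 2 genes the nearest genes were not listed, only the ranks of the other chemokines. Among the chemokines themselves, in pairs picked after their values were seen, Ccl3 and Ccl4 were 0.20 apart and Ccl4 and Cxcl2 0.28. Ccl4 ranked 3 of 4314 for Ccl3, and Ccl3 ranked 2 for Ccl4, as a description of 6 arrays that share days, lots and groups.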

How the data were processed

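RNA of brain capillaries had been hybridised to 6 Affymetrix RG_U34A arrays, 2 per group. The deposited values were linear intensities of 8799 probe sets, with no detection calls. The values showed a common trimmed mean (2% left out at either end). The software, background correction and scale are not given in the sources used here. Run days, lots and fluidics protocols are per the file headers.

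Gene symbols came from the array's annotation table in GEO: 7006 of the 8740 probe sets left after removing 59 controls had 1 symbol, 308 several (named by none) and 1426 none. Promoter windows and gene order came from RefSeq, build GRCr8.

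The tests used log2(intensity + 90), the offset being the median of values above 0 (358.3) divided by 4. A filter removed the dimmest 40% by mean log2 value. One model over 3 groups was fitted with limma 3.58.1 (R 4.3.3), with two-sided tests, 3 residual and 5.49 prior degrees of freedom and Benjamini-Hochberg adjustment over 5244 probe sets at 0.05. The fit was tested on simulated data. Figures used Python 3.11.15, pandas 2.3.3, numpy 2.4.6 and matplotlib 3.10.9.

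Named genes were all chemokine probe sets, up to 3 genes per pathway list with the largest RAS blockade difference (at each gene's probe set of highest mean), Icam1, Il1b, Nfkbia, Cxcr4, Cxcl12, Cxcl10, Ackr1, Adam10 and Adam17, and the 3 genes most like Ccl2, Cxcl2, Cx3cl1 and Pf4. Icam2, Il1a and marker genes were also given. The members, lists and tests were chosen with earlier results of these data known. Precision is limited by the number of arrays.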

Additional observations from a re-analysis of the deposited data

How the results depend on the processing

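Counts of probe sets called at an adjusted p of 0.05 in limma were 0 in all 4 comparisons, with 266 (RAS blockade), 136 (ACEI), 905 (ARB) and 1171 (ARB versus ACEI) at an unadjusted p under 0.05. With an offset equal to the median, 3, 3, 4 and 4 were called in that order. Quantile and cyclic loess normalization each called 1 for RAS blockade. A fit of only the groups compared, which cannot be made for RAS blockade, called 305 for ARB versus ACEI. With the replicate number as a block, 3, 2, 4 and 1 were called. Deviations of same-numbered arrays from their group means correlated at 0.05 (control and ACEI), -0.02 (control and ARB) and -0.00 (ACEI and ARB). This gave no sign of a pairing by number, but 2 arrays per group cannot exclude it. The numbers also went with the fluidics protocol. Leaving out each array in turn gave counts of 0 to 60 for RAS blockade, 0 to 261 for ACEI, 0 to 46 for ARB and 0 to 305 for ARB versus ACEI. Without control 1 they were 60, 261, 15 and 305 and without control 2 they were 2, 0, 46 and 305, and the lone control array is then assumed to vary like the other groups. In none of these settings was a chemokine probe set called (0 calls).

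Of 44 chemokine results 27 kept their sign under all alternatives run, and 33 of 733 alternative values had the other sign. With an offset equal to the median Ccl5 was at 0.23 for ACEI. Quantile and cyclic loess normalization put AF030358_g_at of Cx3cl1 at 0.00 and 0.14 for ARB, and X17053cds_s_at of Ccl2 at -0.31 and -0.24 for ARB versus ACEI. With the run day as a block X17053cds_s_at was at -0.49 and AF030358_at at 0.26 for ARB versus ACEI. On the later run day alone these were -0.57 and 0.06, Ccl5 was at 0.44 and Cx3cr1 at 0.54 for RAS blockade, and Ccl5 was at 2.17 and Ccl3 at 0.08 for ACEI. The cause was not tested. A filter of 60% left out Ccl5.

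Leaving out each array in turn turned the sign of these values, given as lowest to highest. For RAS blockade they were Cx3cl1 -0.06 to 0.67 (AF030358_g_at), -0.38 to 1.04 (AF030358_at) and -0.07 to 2.11 (rc_AA800602_s_at), Cx3cr1 -1.59 to 0.40 and Ccl5 -1.79 to 0.17. For ACEI they were Ccl5 -2.01 to 1.91, AF030358_at -0.25 to 1.17 and Cx3cr1 -0.65 to 1.34. For ARB they were AF030358_at -0.51 to 0.92, AF030358_g_at -0.37 to 0.36, rc_AA800602_s_at -0.40 to 1.79 and Pf4 -0.71 to 0.04. For ARB versus ACEI they were X17053cds_s_at -0.57 to 0.79, AF030358_at -0.57 to 0.06, Ccl5 -3.48 to 0.44 and rc_AA800602_s_at -1.74 to 0.45. The differences of Cxcl2 and Ccl4 from control kept their sign throughout. With 2 arrays per group, no detection calls and dim values such as 60.4 for Ccl5, these data limit what can be said of small differences.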
